A study of Homo sapiens with 6 samples.

Results

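Tandem 3′ ends are alternative cleavage and polyadenylation sites that lie in the same last exon of a gene, so that the choice between them sets the length of the 3′ untranslated region, or cuts the coding region where the upstream site lies before the stop codon. For each gene, the isoforms of more than 1 exon were taken, 3′ ends up to 100 bases apart were joined into 1 end, and the best-read pair was kept among ends whose main isoforms share the 3′ splice site of the last exon. The end nearer to the splice site is called proximal and the farther one distal, and the distal share is the percentage of the reads of both ends that belong to the distal end. Of 3270 genes with such a pair, 1761 had at least 10 reads in each of the 6 libraries and are described here. At the edge of that minimum, 47 genes whose poorest library had exactly 10 reads had a median distal share of 50.2%, and 60 left out with 9 reads had 52.4%. The isoforms examined came from 10377 Ensembl genes with 48268 multi-exon isoforms. The pair was also the gene's 2 most-read ends of any kind in 1589 genes, and in 172 it was not. The rule itself uses no measured difference between genotypes, but it was set with earlier results of these data known.

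All libraries come from HBEC3kt, an immortalised line of human bronchial epithelial cells. Of the 6 libraries, 3 come from cells carrying the S34F change in U2AF1, the splicing factor subunit that contacts the AG of the 3′ splice site, and 3 from wild-type (WT) cells. Each genotype is represented by 2 isolates, which are called replicates 1 and 2 in the B1 libraries. The B2 library of each genotype, called replicate 3, is taken as isolate 2 read again. Its title carries the number 2, but the name of its count column carries the number 3. The p-values therefore rest on 3 libraries of 2 isolates per genotype, and what B1 and B2 stand for is not given. Those of edgeR for end choice use 1 trended spread shared by all end pairs, not each gene's own spread between libraries. The base change itself cannot be read from counts per isoform, so the genotype labels were not checked. Full-length cDNA primed on the poly(A) tail was read on a nanopore sequencer, and the deposited values are read counts per isoform.

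The 3 S34F libraries held 811255, 451540 and 1014868 reads, against 1720292, 1286512 and 1584167 in the WT libraries, and between 49.6% and 56.3% of them fell on the tandem pairs. A typical gene of the set had 51 to 106 reads per S34F library and 120 to 180 per WT library. At such depth a share is loose in 1 library: 41 distal reads of 51 give 80.4%, with a 95% Wilson interval of 67.5% to 89.0% for counting error only. All 12 basal epithelial marker genes were read, at a summed level of 13896 to 16118 CPM (counts scaled to the library total) in S34F libraries and 10926 to 14228 CPM in WT libraries. The secretory, blood, endothelial and fibroblast markers were at 0, and 4 of 5 ciliated-cell markers were at 0.

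Cleavage needs the CPSF complex, which binds a hexamer upstream of the cut, usually the one written AATAAA in DNA letters or its weaker form ATTAAA, and the CSTF complex, which binds downstream sequence. The cut is then made and poly(A) polymerase adds the tail. A longer 3′ untranslated region can hold more sites for microRNAs and RNA-binding proteins.

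The sequences before the ends of 6 genes are given first, since the letters at the proximal end go along with how often that end was used (the shares follow further on). Each line is the 30 bases up to the end, on the transcript strand, 5′ to 3′, from the transcripts of GENCODE release 29 (GRCh38), with the hexamer in capitals. ACTB encodes cytoplasmic beta-actin, S100A11 a calcium-binding protein, RPS14 a ribosomal protein of the small subunit, TUBB a beta-tubulin, RAC1 a small GTPase that acts on the actin cytoskeleton, and MIF a cytokine.
ACTB proximal: gcccccccttcccccttttttgtcccccaa
ACTB distal: accagttgAATAAAagtgcacaccttaaaa
MIF proximal: ctccaccttcgcctaagagccgcagggacc
MIF distal: ggtggggagaAATAAAcggtttagagacta
RPS14 proximal: gttAATAAAttgccttcatgtaaactgttt
RPS14 distal: taaagtacataaagattgtcaccccacaaa
TUBB proximal: taggcgctcAATAAAtacttgtttgttgaa
TUBB distal: ccaaaAATAAAtgggaattgaaaaaagctg
RAC1 proximal: ctcacattctATTAAAatttagccctaaaa
RAC1 distal: tAATAAAtccttgaatcatacgactggtaa
PPIA proximal: agtttatgattatgaAATAAAaactaaata
PPIA distal: tggaAATAAAcatcaaacatcttttcatta
In ACTB and MIF only the distal end has a hexamer within these bases, in RPS14 only the proximal end has one, and in TUBB, RAC1 and PPIA (cyclophilin A, a prolyl isomerase) both ends have one.

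These genes span the range of end choice. ACTB, with its ends 107 bases apart on the minus strand of chromosome 7 (hg19 positions 5566890 and 5566783), had distal shares of 98.8%, 98.7% and 98.5% in S34F libraries and 98.5%, 98.6% and 98.4% in WT libraries. MIF had 98.9%, 97.8% and 97.7% in S34F libraries and 98.2%, 98.01% and 97.9% in WT libraries, over ends 103 bases apart. RPS14 was read mostly at its proximal end, with distal shares of 31.5%, 31.8% and 31.4% in S34F libraries and 33.3%, 32.9% and 31.8% in WT libraries. The ends of RPS14 are 456 bases apart. TUBB used both ends, with distal shares of 52.2%, 65.6% and 66.9% in S34F libraries and 51.9%, 46.7% and 59.3% in WT libraries. RAC1 had 7.06%, 6.43% and 42.5% in S34F libraries and 13.2%, 17.6% and 47.9% in WT libraries, so replicate 3, the B2 library, stood far above the other 2 in both genotypes.

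Over all 1761 genes the distal end was read more often. The median distal share of a gene was 81.0%, 80.8% and 83.5% in the S34F libraries and 79.5%, 80.3% and 83.3% in the WT libraries. Of the genes, 606 (34.4%) had more than 90% of reads at the distal end in every library, 89 (5.05%) had less than 10% in every library, and 324 (18.4%) lay between 20% and 80% in all 6. The distal end held the majority in every library in 1114 genes and the minority in every library in 486, while 161 genes crossed 50% between libraries. The ends were 280 bases apart in the median gene, with quartiles of 170 and 602 bases, a shortest distance of 101 and a longest of 3742 bases. The shortest distances belong to ATP5MC1 (a subunit of mitochondrial ATP synthase), EIF3I (translation initiation) and POLR2G (RNA polymerase II), and the longest to SCD, which encodes a fatty acid desaturase, BRD9 (3164 bases) and REEP3 (3125 bases).

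Ends could be placed on a GENCODE transcript for 1645 of the 1761 genes (93.4%). AATAAA was found within 40 bases before the end in 380 of 1638 proximal ends (23.2%) and in 733 of 1466 distal ends (50%). ATTAAA without AATAAA was found in 142 proximal ends (8.67%) and 208 distal ends (14.2%). Over all 40-base windows of the same last exons, on the same strand, AATAAA was present in 3.77% and ATTAAA without AATAAA in 2.15%. Only the transcript strand was searched, the 2 hexamers can share bases at their edges, and a window with both was counted under AATAAA. The end lay 15 bases after AATAAA in the median at proximal ends (quartiles 13 and 20) and 17 bases at distal ends (quartiles 14 and 21). A match is a description of letters and was not tested as a functional site.

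**Figure D1:**
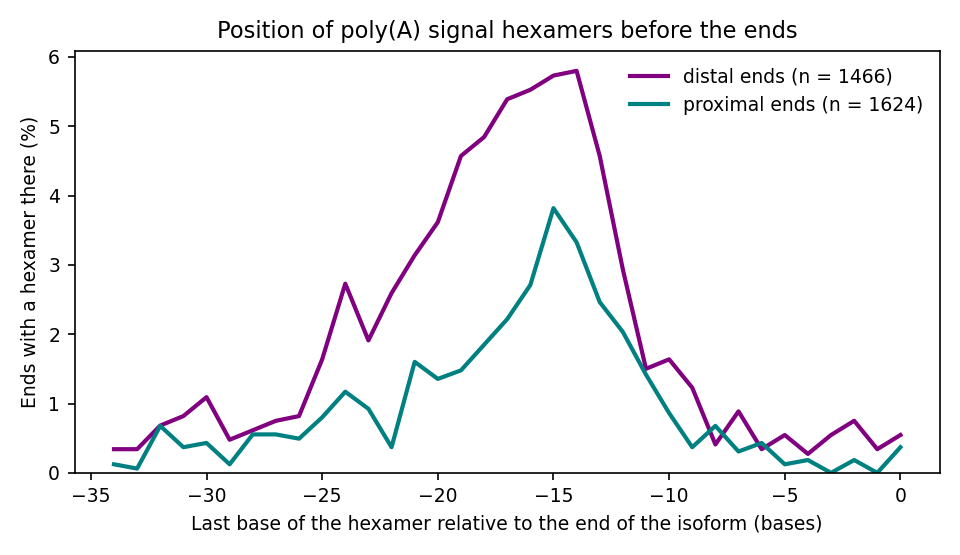
Position of AATAAA or ATTAAA before proximal and distal ends, as the percentage of ends (vertical axis) with a hexamer whose last base lies at the given position relative to the end, in bases (horizontal axis, 0 at the end). Hexamers gather at about 15 bases before the end at both kinds of end, and more distal than proximal ends carry one.

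Genes with a hexamer at the proximal end used that end more. In the 380 genes with AATAAA before the proximal end, the median distal share was 41.2%, 36.5% and 43.2% in S34F libraries and 36.0%, 39.7% and 45.2% in WT libraries. In the 142 genes with ATTAAA it was 53.8%, 56.2% and 59.6% in S34F libraries and 53.2%, 54.4% and 58.3% in WT libraries. In the 1116 genes with neither hexamer it lay between 92.9% and 93.9% in S34F libraries and between 92.8% and 93.2% in WT libraries. The 3 classes kept this order in each of the 6 libraries, and S34F and WT medians of a class overlapped. When both ends were read together, 159 genes with a hexamer only at the proximal end had medians of 31.4%, 25% and 28.6% in S34F libraries and 29.3%, 30.6% and 32.1% in WT libraries. The 285 genes with a hexamer at both ends had 60.0%, 60.3% and 64.7% in S34F libraries and 60.3%, 61.0% and 65.1% in WT libraries. These are descriptions over genes that share libraries, and genes are not independent replicates.

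**Figure D2:**
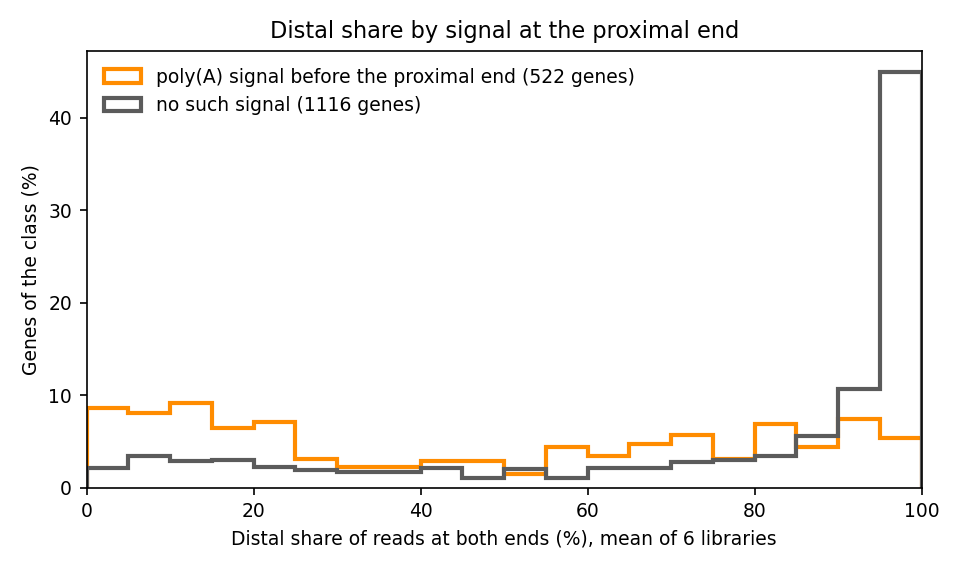
Distribution of the distal share, in percent as the mean of the 6 libraries (horizontal axis), over genes with either hexamer (380 with AATAAA and 142 with ATTAAA) or neither (1116) before the proximal end. The vertical axis is the percentage of the class, genes with neither hexamer gather near the right edge, and genes with a hexamer spread over the whole range.

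Many proximal ends, and some distal ends, had neither AATAAA nor ATTAAA before them, and other hexamers were not searched. The proximal end lay within 25 bases of an annotated transcript end in 836 of 1645 genes (50.8%) and the distal end in 1080 (65.7%), with both ends so placed in 476 (28.9%). It lay before the stop codon in 163 of 1625 genes, and these had median distal shares of 97.3% to 98.3% in S34F libraries and 97.2% to 97.7% in WT libraries. The 20 bases after an end could be read only where the annotated last exon runs on that far, which left out most placed distal ends. At least 12 A among the 20 transcript bases that follow an end, from which a poly(A) primer can start within a transcript, occurred at 56 of 1555 proximal ends (3.6%) and 23 of 715 distal ends (3.22%), against 1.65% of all such windows. These 56 genes had median distal shares of 73.1%, 61.4% and 74.5% in S34F libraries and 64.4%, 67.1% and 78.6% in WT libraries. What part of the ends comes from priming inside a transcript or from cDNA that stopped early was not tested.

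The distal share was lower the farther apart the ends were, up to 401 to 800 bases. The 596 genes with ends 101 to 200 bases apart had median shares of 96.0%, 95.4% and 94.7% in S34F libraries and 94.9%, 95.5% and 95.2% in WT libraries. The 279 genes with ends more than 800 bases apart had 52.4%, 51.7% and 63.3% in S34F libraries and 51.9%, 54.5% and 63.6% in WT libraries. At those distances the libraries of B2, which are the last of each triplet, were higher than those of B1 in both genotypes. Proximal ends with either hexamer made up 22.0% of genes at 101 to 200 bases, 34.6% at 201 to 400, 41.0% at 401 to 800 and 35.9% beyond 800. Distance and share also went along with isoform structure. Genes whose main isoforms share every intron had a median distance of 212 bases and a median mean distal share of 94.2%. Where 1 main isoform is only shorter at its start, these were 496.5 bases and 24.1%. They were 337 bases and 69.0% where only upstream introns differ, and 354 bases and 88.1% where only the last splice site is shared. The distance and hexamer patterns were not separated from this structure.

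B2 against B1 was the larger difference in distal share in these libraries. With edgeR's quasi-likelihood test (Benjamini-Hochberg adjusted p up to 0.05), 120 tandem genes were called between B2 and B1, which is 6.81%, and 7.3% of all 2493 tested end pairs were called. Of the tandem genes called, 100 had a higher distal share in B2, a direction called in 5.86% of all pairs, and 20 a lower one, called in 1.44% of all pairs. Among genes with ends over 800 bases apart 56 were called, all higher in B2, and the median gene's log2 odds of the distal end was higher by 0.60. At 101 to 200 bases 17 were called, 6 of them higher, and the median log2 odds was -0.03. RAC1 was among the genes called, with a log2 odds of 2.75 (adjusted p = 1.52e-16), as were SCD with 1.53 (adjusted p = 7.0e-06), REEP3 with 3.03 (adjusted p = 0.000253) and ELAVL1, an RNA-binding protein that stabilises transcripts, with 1.78 (adjusted p = 0.0238). Limma on log odds called 5 tandem genes in this comparison. Each genotype has 1 B2 library, the second of isolate 2, so B2 and a second reading of that isolate cannot be told apart. Whether the genotype difference itself differs between B2 and B1 cannot be judged with 1 B2 library per genotype.

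**Figure D3:**
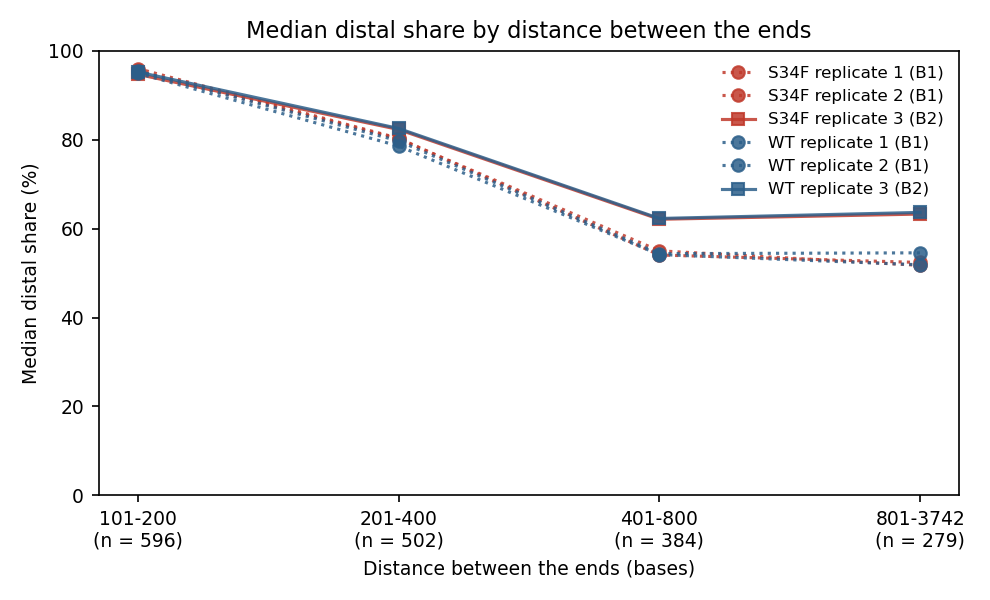
Median distal share in percent (vertical axis) of genes in 4 classes of distance between the ends (horizontal axis), 1 line per library, with S34F in red, WT in blue, circles for B1 and squares for B2. Beyond 800 bases the B2 libraries reach 63.3% (S34F) and 63.6% (WT), above all B1 libraries, and the lines of the genotypes run together.

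The comparison the design implies is whether end choice differs between S34F and WT cells. Across genes no shift to 1 side was found: the log2 odds of the distal end, S34F over WT, was above 0 in 870 genes and below 0 in 891, and the median log2 odds was -0.01. The median share per library was on average 0.69 percentage points higher in S34F (two-sided exact permutation test, p = 0.5, the smallest possible with 3 against 3 being 0.1). That test did not keep B1 and B2 apart. Within B1 both S34F medians lay above both WT medians, with a difference of 0.96 points, and within B2 the S34F median was 0.14 points higher, against 3.03 points between B2 and B1. The median difference per gene, in either direction, was 1.58 points, while the SD between libraries of a group had medians of 3.09 points in S34F and 2.42 points in WT. A difference of over 10 points was seen in 73 genes, of which 2 had at least 100 reads in every library (486 genes did).

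With edgeR's quasi-likelihood test, 6 of the 1761 tandem genes differed between genotypes at an adjusted p up to 0.05, which is 0.341%. Over all 2493 end pairs tested 19 were called, 0.762%, and among the 732 pairs in different last exons 13 were called (1.78%). Whether the rates of tandem and other pairs differ was not tested. Of the tandem genes 2 had a higher distal share in S34F and 4 a lower one, directions called in 0.321% and 0.441% of all pairs. At an unadjusted p under 0.05 by edgeR there were 101 tandem genes (5.74%), 51 higher and 50 lower in S34F, against 193 of all 2493 pairs (7.74%). Limma gave 100 tandem genes, against 196 of all pairs, and DESeq2 gave 16 tandem genes. After adjustment limma and DESeq2 called 0 tandem genes. Ranges of the 2 genotypes did not overlap in 160 tandem genes, 84 with the higher share in S34F and 76 with the lower, 9.09% against 11.1% over all pairs (5.94% higher and 5.13% lower). Single libraries decide much of the count: it was 2 without S34F replicate 3, 2 without WT replicate 2, 2 without WT replicate 3 and 3 without WT replicate 1.

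**Figure D4:**
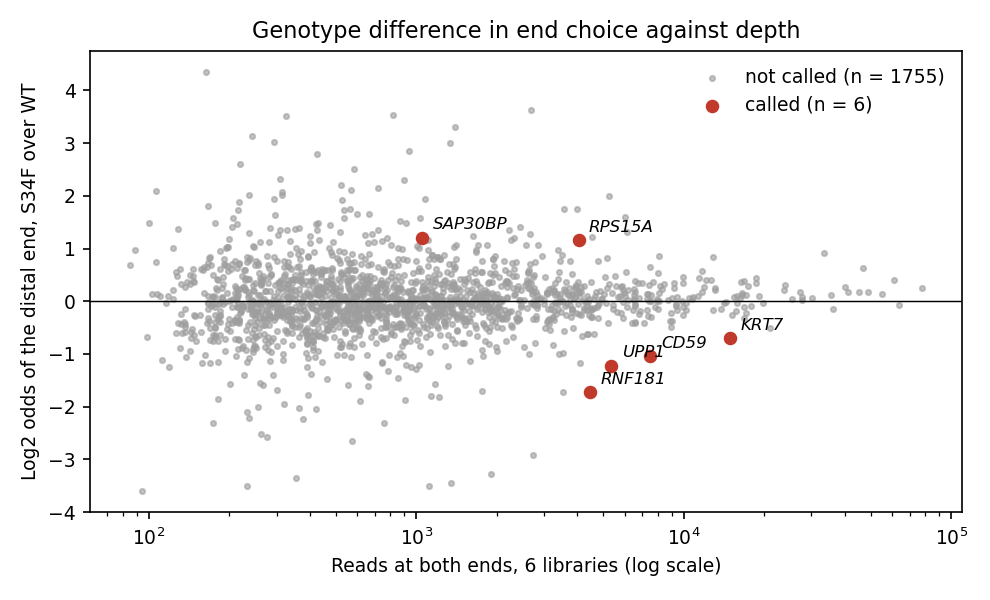
Log2 odds of the distal end, S34F over WT (vertical axis), of the 1761 genes against the total reads at both ends in the 6 libraries (horizontal axis, log scale); the 6 genes called are marked. Differences spread widely at low depth and draw in at high depth, and 870 points lie above 0 and 891 below.

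The 6 genes called were RPS15A and SAP30BP with a higher distal share in S34F, and RNF181, UPP1, CD59 and KRT7 with a lower one. Their sequences show what each end carries: the letters are given for 5 of them, where an end could be placed.
RPS15A proximal: AATAAAatgcctcatggactctggtgcttc
RPS15A distal: acttcaaaAATAAAataggatatgaaaatg
RNF181 proximal: tgaatcctcATTAAAggtttctttacccac
UPP1 proximal: tgtgatgacttgccATTAAAagcattgtcc
UPP1 distal: agtgccaggaaactaatttcctgatacatt
SAP30BP proximal: aggcagcacgggagccaggcgctgtggaca
SAP30BP distal: AATAAAaattgagtccactctccccgtaca
KRT7 proximal: ctcccatgcctggtcccaagacagtgagac
For SAP30BP distal the line stops 5 bases before the end, so that the hexamer is shown. CD59 could not be placed on a GENCODE transcript, and the distal ends of RNF181 and KRT7 lie beyond the annotated last exon.

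RPS15A, a ribosomal protein of the small subunit, had its ends 1661 bases apart on the minus strand of chromosome 16 (hg19 positions 18794279 and 18792618). Its distal share was 35.6%, 13.0% and 61.3% in S34F libraries and 6.93%, 13.7% and 53.2% in WT libraries (log2 odds 1.16, SE 0.23, edgeR adjusted p = 0.000329). The ranges overlapped, and the B2 library was the highest in both genotypes. Limma on log odds, which also uses each gene's own spread, gave RPS15A an unadjusted p of 0.128. All 1305 reads of the distal end belong to 1 isoform of 3 exons that starts at 18799385, while the main proximal isoform has 5 exons and starts at 18801656. RPS15A, like most ribosomal protein genes, has processed copies in the genome, and how reads matching several places were assigned is not given.

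UPP1, uridine phosphorylase, which splits uridine into uracil and a sugar phosphate, had its ends 302 bases apart on the plus strand of chromosome 7 (48148012 and 48148314). Its distal share was 19.8%, 16.3% and 25.2% in S34F libraries and 37.4%, 41.1% and 35.1% in WT libraries, with no overlap (log2 odds -1.22, SE 0.28, adjusted p = 0.00308 by edgeR). The gene level was also lower in S34F, with a log2 fold change of -3.01 (edgeR adjusted p = 0.000121), and both ends together had 86 to 103 reads in S34F libraries against 1275 to 2014 in WT libraries. Among the 1761 genes UPP1 was the one called both for end choice and for level. Of the tandem genes 47 (2.67%) were called for level, 17 higher and 30 lower in S34F, against 3.24% of 7033 genes tested (1.11% higher and 2.13% lower). In bulk RNA, fewer cells expressing a gene and less RNA per cell cannot be told apart.

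SAP30BP, a protein that binds a subunit of a histone deacetylase complex, had its ends 981 bases apart on the plus strand of chromosome 17 (73702781 and 73703762). Its distal share was 81.0%, 81.9% and 84.3% in S34F libraries and 68.6%, 65.2% and 67.3% in WT libraries, and the groups did not overlap (log2 odds 1.21, SE 0.30, adjusted p = 0.0147 by edgeR). RNF181, a RING-finger ubiquitin ligase, had 1.42%, 1.15% and 1.14% in S34F libraries and 3.71%, 4.30% and 4.86% in WT libraries, with ends 259 bases apart on chromosome 2 (85824704 and 85824963, plus strand). These shares rest on 12, 2 and 4 distal reads in S34F libraries and 41, 57 and 32 in WT libraries. CD59, which protects cells from complement, had 2.99%, 2.39% and 1.89% in S34F libraries and 5.12%, 5.32% and 4.35% in WT libraries, with ends 372 bases apart on chromosome 11 (33719808 and 33719436, minus strand). The pair of CD59 is not the gene's 2 most-read ends, and 306 of its 7503 reads were distal. Neither of these 2 genes had overlapping groups, and in both the proximal end held most reads in every library. Their log2 odds were -1.72 (SE 0.38, adjusted p = 0.0023 by edgeR) for RNF181 and -1.05 (SE 0.27, adjusted p = 0.0186 by edgeR) for CD59. KRT7, a keratin of simple epithelia, had 22.4%, 9.62% and 16.6% in S34F libraries and 21.5%, 29.8% and 19.7% in WT libraries, and the groups overlapped, with a log2 odds of -0.71 (SE 0.19, adjusted p = 0.0371 by edgeR). Limma on log odds gave KRT7 an unadjusted p of 0.188. The ends of KRT7 lie 549 bases apart on the plus strand of chromosome 12 (52642639 and 52643188). All 3147 reads at its distal end belong to 1 isoform of 4 exons starting at 52635293, while the main proximal isoform has 10 exons and starts at 52626450.

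In each of the 6 genes the main isoforms at the 2 ends also differ further upstream, so the distal share mixes the end with other parts of the transcript. Over all 1761 genes edgeR called 0.341%, and 5.74% had an unadjusted p under 0.05. The main isoforms share every intron in 776 of them (44.1%), of which 0 were called and 31 (3.99%) had an unadjusted p under 0.05 by edgeR. Of 534 genes whose main isoforms share the last intron but differ upstream 4 were called, of 109 that share only the last splice site 1, and of 342 in which 1 main isoform is only shorter at its start 1, with 7.49%, 8.26% and 6.14% at an unadjusted p under 0.05. Whether these classes differ was not tested.

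To compare ends on the same transcript body, the reads were limited to intron chains found at both ends, which 854 tandem genes had with enough reads; this comparison was added after the data were seen. EdgeR called 0 of them (39 at an unadjusted p under 0.05). For SAP30BP the share within the matched chain was 94.1%, 96.4% and 95.1% in S34F libraries and 95.9%, 94.9% and 94.97% in WT libraries, with a log2 odds of -0.09 (95% interval -1.29 to 1.12). For CD59 it was 49.0%, 40.9% and 50% in S34F libraries and 45.9%, 49.1% and 53.8% in WT libraries, with a log2 odds of -0.10 (-0.86 to 0.66). For RNF181 the matched chain held 28 S34F reads, 64.3% distal, and 238 WT reads, 54.6% distal, so the pooled share ran the other way from that over all reads. For UPP1 the 2 matched chains held 11 S34F reads, 90.9% distal, and 823 WT reads, 79.7% distal, which also runs the other way from its share over all reads. Neither gene had enough reads there for a test. RPS15A and KRT7 have no intron chain found at both ends. When 1 library at a time was left out, RPS15A and UPP1 were called by edgeR in 4 of 6 fits, RNF181 and SAP30BP in 3, and CD59 and KRT7 in 1. RPS15A lost its call without S34F replicate 1, where its log2 odds was 0.46, or WT replicate 1, and KRT7 had a log2 odds of -0.27 without S34F replicate 2 (adjusted p = 0.827 by edgeR) and -0.47 without WT replicate 2, where it was not called either. UPP1 lost its call without S34F replicate 2 or WT replicate 2.

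**Figure D5:**
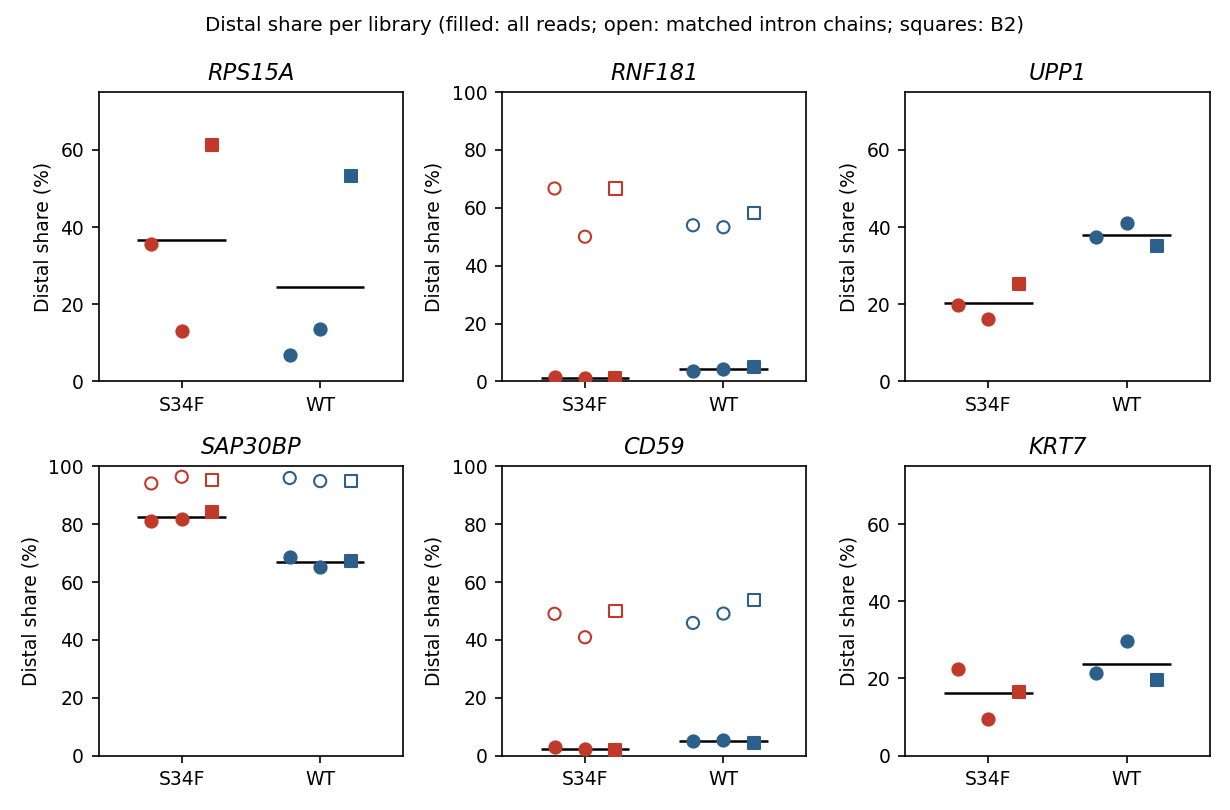
Distal share in percent (vertical axis) per library of the 6 genes called, with S34F to the left of WT and black lines at the group means. Filled symbols use all reads, open symbols the matched intron chains of RNF181, SAP30BP and CD59, squares are B2 libraries, and the vertical scales differ. In SAP30BP the filled points are 81.0% to 84.3% in S34F and 65.2% to 68.6% in WT, whereas the open points of the 2 groups overlap.

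Among the other genes named, LGALS1, S100A11 and PFN1 were read almost wholly at the distal end. LGALS1 (galectin-1) had 99.8%, 99.7% and 99.5% in S34F libraries and 99.5%, 99.4% and 99.5% in WT libraries. With ends merged within 200 bases its pair became positions 38075809 and 38076048, whose distal share was lower in S34F (log2 odds -1.66, adjusted p = 0.00038 by edgeR). S100A11 had 99.2%, 98.4% and 98.7% in S34F libraries and 98.4%, 98.4% and 98.2% in WT libraries (log2 odds 0.63, adjusted p = 0.16 by edgeR), and it was called without S34F replicate 2 (log2 odds 0.87, adjusted p = 2.87e-06 by edgeR). PFN1 (profilin, which binds actin) had 99.8% or 99.9% in all 6. Of the genes with at least 100 reads in every library, PPIA, which like RPS15A has processed copies, had 27.2%, 21.5% and 30.8% in S34F libraries and 25.4%, 40.3% and 44.4% in WT libraries (adjusted p = 0.18 by edgeR), with overlapping groups. NSFL1C, an adaptor of the ATPase p97, had 12.2%, 9.52% and 14.2% in S34F libraries and 14.8%, 26.4% and 22.3% in WT libraries (adjusted p = 0.127 by edgeR). In that gene 17 of the 20 bases after the proximal end are A. SLC25A6, an ADP/ATP carrier of the inner mitochondrial membrane, had 33.1%, 18.4% and 30.1% in S34F libraries and 29.5%, 40.7% and 37.9% in WT libraries (adjusted p = 0.266 by edgeR). RPL24, a ribosomal protein of the large subunit, had 42.6%, 50.3% and 46.1% in S34F libraries and 38.7%, 38.5% and 42.6% in WT libraries (adjusted p = 0.854 by edgeR). None of these shares passed the test over all libraries, and SLC25A6 did without S34F replicate 1 (log2 odds -0.91, adjusted p = 0.0409 by edgeR). PDLIM7, a scaffold protein of the actin cytoskeleton, had 99.6%, 96.1% and 98.9% in S34F libraries and 94.6%, 95.4% and 95.2% in WT libraries, without overlap (adjusted p = 0.16 by edgeR). It was called without S34F replicate 2 (log2 odds 3.04, adjusted p = 0.0087 by edgeR), where S34F replicates 1 and 3 had 1 proximal read each. The pair of PDLIM7 is not the gene's 2 most-read ends. TOMM5, a subunit of the mitochondrial import pore, had 80.4%, 70.3% and 82.2% in S34F libraries and 70.0%, 72.0% and 75.9% in WT libraries. AP2B1, a subunit of the clathrin adaptor AP-2, had 81.8%, 76.9% and 67.5% in S34F libraries and 63.4%, 37.0% and 34.1% in WT libraries, but only 11 to 40 reads per S34F library (adjusted p = 0.083 by edgeR).

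The genes with the longest distances varied widely between libraries. SCD had 86.9%, 83.0% and 94.8% in S34F libraries and 77.8%, 89.4% and 93.3% in WT libraries. REEP3, which shapes the endoplasmic reticulum, had 0 of 14 reads (which allows a share of up to 21.4%), 13.6% and 34.8% in S34F libraries and 11.3%, 3.45% and 48.6% in WT libraries. The B2 library was again the highest of its genotype in both genes.

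BUB3, a spindle checkpoint protein, had 98.3%, 98.2% and 97.0% in S34F libraries and 97.5%, 92.7% and 94.9% in WT libraries (log2 odds 1.03, adjusted p = 0.584 by edgeR). The pair of BUB3 is not the gene's 2 most-read ends. U2AF1 itself had 98.5%, 98.5% and 97.3% in S34F libraries and 98.9%, 98.5% and 97.6% in WT libraries.

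Gene groups were read against all 1761 members, of which edgeR called 0.341% and 5.74% had an unadjusted p under 0.05. Of 23 tandem genes listed as known examples of tandem polyadenylation 0 were called and 2 had an unadjusted p under 0.05 (against 5.74% of all members), RAC1 and LDHA (lactate dehydrogenase A). Their median mean distal share was 74.4%, against 80.9% over all members. CCND1, cyclin D1, averaged 4.33% ± 3.76 in S34F and 4.87% ± 2.59 in WT (SD, n = 3 each). RHOA, a small GTPase of that list, averaged 81.9% ± 5.37 in S34F and 81.0% ± 4.42 in WT (SD, n = 3 each). CDC42, a further small GTPase of that list, had 52.8%, 65.3% and 58.5% in S34F libraries and 57.0%, 50.4% and 57.7% in WT libraries. With ends merged within 200 bases its pair became positions 22418282 and 22419416, with distal shares of 80.6%, 71.2% and 88.5% in S34F libraries and 88.2%, 90.4% and 92.8% in WT libraries (log2 odds -1.14, adjusted p = 0.00192 by edgeR). PABPC1, which binds poly(A) tails, had 49.4%, 39.6% and 40.3% in S34F libraries and 47.5%, 51.5% and 38.9% in WT libraries. Of 50 ribosomal protein genes 1 was called, RPS15A, and 4 had an unadjusted p under 0.05, against 0.341% and 5.74% of all members, with a median distal share of 55.0%. None of 22 translation factors, 30 actin and adhesion genes, 25 splicing factors, 30 proteasome and ubiquitin genes and 39 mitochondrial energy genes was called by edgeR, with 2, 2, 0, 0 and 2 at an unadjusted p under 0.05. Of 10 genes named before as splicing targets of U2AF1 S34F 1 was called, UPP1, and 2 had an unadjusted p under 0.05, against the same 0.341% and 5.74%. The lists were chosen with earlier results of these data known, so the UPP1 call is not independent support for that list.

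The genes that make and choose ends were looked at for their level. Of 13 cleavage and polyadenylation factors tested 0 were called by edgeR, with 1 at an unadjusted p under 0.05. Of 28 RNA-binding and other proteins linked to end choice (PAF1, CDC73, LEO1 and RTF1 among them) 0 were called, with 4 such, RTF1 included. Over all 7033 genes tested 3.24% were called. That share is after adjustment, and without an unadjusted share over all genes the counts of 1 and 4 cannot be judged. Here CPM were scaled by TMM as well, unlike those of the cell type markers. The smallest p belonged to SNRNP70, a U1 particle protein, at 28.0 ± 20.6 CPM in S34F and 8.33 ± 8.02 CPM in WT (SD, n = 3 each; log2 fold change 1.71, edgeR adjusted p = 0.0582). It was called with the replicate block, with no filter on low counts, and without S34F replicate 2. RBM3, a cold-induced RNA-binding protein, was at 275 ± 50.1 CPM in S34F and 141 ± 31.1 CPM in WT (log2 fold change 0.97, edgeR adjusted p = 0.067), and was called without S34F replicate 1 or 2. In these gene groups 8 cleavage factors and 15 genes of the second list are tandem genes themselves, and 0 of them were called for end choice by edgeR, with 1 and 0 at an unadjusted p under 0.05.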

How the data were processed

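The deposited table holds raw counts of long reads, 1 column per library, over a common isoform set that the authors' file name ties to FLAIR. Positions are in hg19, per the submitters' processing notes, and were read from the deposited isoform models. No source used here gives the aligner, versions, filters, strand use or read assignment. Symbols matched for 1732 genes.

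Distal and proximal counts per library entered edgeR 4.0.16 under R 4.3.3 (quasi-likelihood, library terms, end by B1/B2 and end by genotype), with Benjamini-Hochberg adjustment over all 2493 end pairs and a threshold of 0.05. Its prior degrees of freedom were infinite: all pairs share 1 trended spread. Limma 3.58.1 on log2 odds (offset 0.5) gave a prior of 3.02, and DESeq2 1.42.0 was a second alternative. Gene levels used TMM scaling. On simulated data with known changes in share, edgeR and DESeq2 called part of the large changes and limma called none. Small changes went uncalled, so a gene left uncalled is not shown to be alike. Every simulated pair had the same spread beyond sampling, so the simulation does not rank these tests for the real data. Libraries of a group differed beyond sampling noise. Counting used Python 3.11.15, pandas 2.3.3, numpy 2.4.6 and scipy 1.17.1, and plots matplotlib 3.10.9.

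Named genes are the 12 with the smallest p, the 6 most read, the 3 shortest and 3 longest distances, the 4 largest changes each way at 100 reads, the known tandem genes, and UPP1, BUB3 and U2AF1. Members and lists were chosen with earlier results of these data known.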

Additional observations from a re-analysis of the deposited data

How the results depend on the processing

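The count of tandem genes called for genotype, 6, became 0 with limma on log odds, 0 with DESeq2, 0 without the B1/B2 term, 0 with the libraries of isolate 2 summed, 2 with B1 libraries only, 2 at equal depth and 0 over matched intron chains, an alternative chosen after seeing the data. Leaving out 1 library in turn gave 2 to 6 genes, and other filters, end mergings and pair choices gave 4 to 7. With a replicate block 2 genes were called, RNF181 and UPP1. The replicate numbers were not taken to pair the libraries, since deviations of same-numbered libraries correlated at 0.071, 0.011 and 0.388. The difference in median distal share, 0.69 points, was -0.566 points with ends merged within 200 bases and lay between -0.184 and 1.83 points when leaving out 1 library. The B2 count of 120 genes was 5 with limma. The count of 0 factor genes called for level was 1 with the replicate block (SNRNP70), 1 with no filter on low counts (SNRNP70), and 0 to 2 when leaving out 1 library, with RBM3 and SF3B1 called without S34F replicate 1 and RBM3 and SNRNP70 without S34F replicate 2.

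Of the values of single named genes under the alternatives, 858 kept their direction and side of the threshold, 61 lost a call, 4 gained one (PDLIM7, S100A11 and RPL35 without S34F replicate 2, SLC25A6 without S34F replicate 1) and 42 changed sign. Those that changed sign are given as log2 odds, S34F over WT, and apart from LGALS1 and CDC42 none of them was called. With ends merged within 200 bases the values were -1.659 for LGALS1, -1.135 for CDC42, -1.123 for BUB3, -0.384 for RPL24, -0.1307 for LDHA and -0.03215 for KHDRBS1, and the first 5 of these genes then had another pair of ends. With ends merged within 50 bases CAST was at -0.4576. Over matched chains SAP30BP was at -0.0879 and PABPC1 at 0.6209. With B1 libraries only RAB10 was at 0.07908, REEP3 at 0.03114 and KHDRBS1 at -0.3718. At equal depth U2AF1 was at 1.033, EIF3I at -0.06476, ANXA5 at -0.2753 and POLR2G at 0.03944. With isolate 2 summed ANXA5 was at -0.01698. KHDRBS1 was at -0.04928 with limma and -0.01704 with DESeq2, and POLR2G at 0.1878 with limma and 0.04883 with DESeq2.

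Leaving out 1 library in turn gave ranges of -0.03058 to 0.9666 for SEC61A1, -2.091 to 0.07912 for RAB10, -0.1734 to 0.4088 for MIF, -0.1169 to 0.5825 for SCD, -0.3815 to 0.7489 for ATP5MC1, -0.3224 to 0.989 for HSPA8 and -1.048 to 0.03051 for REEP3. The ranges were -0.03632 to 0.8379 for HSPA4, -0.7739 to 0.1702 for CCND1, -0.2507 to 0.0445 for PABPC1, -0.04908 to 0.3404 for ANXA5, -0.3721 to 0.4709 for KHDRBS1 and -0.2072 to 0.2718 for POLR2G. The causes were not tested. The 51 reads of a typical gene in the shallowest library limit what could be seen of small shares.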
